A study of Homo sapiens with 12 samples.

Results

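The 6 control arrays of this series follow LNCaP cells, an androgen-responsive human prostate carcinoma line that grew out of a lymph node metastasis, at 12, 24 and 36 h after transfection with a scrambled microRNA precursor. They were taken by their titles, all 6 of them, out of 12 arrays. The other 6 arrays hold the same cells at the same times with a precursor of miR-135b. Both precursors were used at 20 nM, with 2 biological repeats per time according to the series' design text, and total RNA was labelled with biotin for Illumina arrays. All control cells therefore carried a transfected double-stranded RNA, and no untransfected cells and no time before 12 h were analysed here. The comparisons were 24 h against 12 h, 36 h against 24 h and 36 h against 12 h over 11238 genes, and they describe how transfected LNCaP cells that did not receive the microRNA differed between these times. Hours in culture and hours after transfection run together here and cannot be told apart. These 3 comparisons share arrays, so they are given side by side and not as independent results.

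Immediate early genes such as FOS, JUN and EGR1 encode transcription factors whose messages appear within minutes of a growth factor, stress or handling stimulus and decay quickly, because the transcripts are short-lived. Stress also acts through the integrated stress response, in which ATF4 drives DDIT3 and genes of amino acid supply, and through NF-kB, which drives cytokine genes. In LNCaP cells the androgen receptor drives kallikrein genes such as KLK3, which encodes prostate-specific antigen, and the activity of these targets follows androgen in the medium.

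The cells carried the markers of their line. Of 11 LNCaP identity markers, 9 had a probe used here, among them KLK3, TMPRSS2, FOLH1 and HOXB13, and all 9 were detected on all 6 control arrays, at a detection p under 0.01. No leukocyte marker (0 of 4) and no basal marker (0 of 3) was detected on all 6, and of the other cell types only COL1A1, VWF and ENO2 were, 1 each of 5 fibroblast, 3 endothelial and 3 neuroendocrine markers. Between 36 and 12 h these 3 stood at -0.41, 0.22 and -0.23 on the log2 scale, ENO2 at 0.03 without the 12 h repeat 1 array, and their part in the results below was not tested. Between 15967 and 17557 of 47323 probes were detected per control array, or 33.7% to 37.1%, and the median SD between the repeats of a time was 0.14 at 12 h, 0.13 at 24 h and 0.13 at 36 h on the log2 scale. The repeat 1 array of 12 h stood apart from the others. On the component that held 36.8% of the variance of the control arrays it lay at -24.9, against -5.83 for its repeat, -7.46 and 9.50 at 24 h, and 11.6 and 17.1 at 36 h. Where a difference printed for a gene between 36 and 12 h, or between 24 and 12 h, moved by over 1.5 times without it, that value stands beside it.

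Few genes passed the threshold between the times. FOS and FHL2, which encodes a LIM-domain coactivator that binds FOS and JUN proteins and the androgen receptor, fell from 12 to 36 h, and no gene rose. These 2 genes were 0.0178% of the 11238 tested (limma, adjusted p under 0.05), and the same 2 passed an F test over the 3 times. From 12 to 24 h and from 24 to 36 h no gene passed with limma, 0% of those tested in either direction. At least 2-fold apart between 36 and 12 h were 27 genes higher at 36 h (0.24%) and 47 lower (0.418%). At an unadjusted p under 0.05 stood 506 genes higher and 483 lower at 24 h than at 12 h (4.5% and 4.3%, together 8.8%), 214 higher and 264 lower at 36 h than at 24 h (1.9% and 2.35%, together 4.25%), and 713 higher and 809 lower at 36 h than at 12 h (6.34% and 7.2%, together 13.5%), and the F test had 1121 (9.98%). Without the repeat 1 array of 12 h no gene passed, and the number at an unadjusted p under 0.05 between 36 and 12 h went from 1522 to 730. Without the repeat 1 array of 36 h no gene passed either. The number also moved with the processing: between 36 and 12 h, 20 genes passed when background was left uncorrected and 20 on the values the authors processed, in both cases among them JUN, DDIT3, DUSP1, DIO3 and CAMK2N1, and none on the 6 control arrays fitted alone. Without either miR-135b array of 36 h, which enter only the estimate of spread, 4 passed. The values of all other genes below are therefore given as levels and differences, not as changes that passed a test. The p-values measure only the spread between these samples, with 2 arrays per time.

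**Figure D1:**
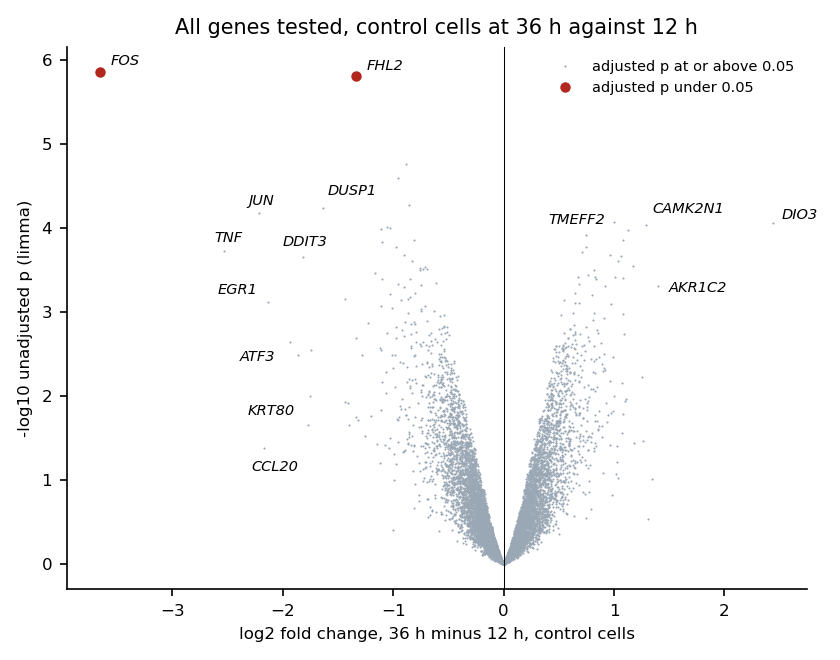
Each point is 1 of 11238 genes, plotted by its log2 fold change between 36 and 12 h in control cells (x axis) and by -log10 of its unadjusted limma p (y axis). FOS and FHL2, in red, passed the adjusted threshold, and the genes farthest from 0 lie on the lower side, with DIO3 the farthest on the higher side at 2.44.

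FOS, a subunit of the AP-1 transcription factor, had the lowest fold change of the 11238 genes in each of the 3 comparisons. Its log2 intensities were 10.57 and 9.66 at 12 h, 8.73 and 8.83 at 24 h, and 6.08 and 6.85 at 36 h. Every array of a later time lay below every array of an earlier one. The log2 fold change was -1.33 ± 0.35 (SE) from 12 to 24 h and -2.32 ± 0.35 from 24 to 36 h, neither of which passed, and -3.65 ± 0.35 over the whole span, a 12.6-fold fall (adjusted p = 0.00876). Without the repeat 1 array of 12 h the difference was -0.88 from 12 to 24 h and -3.19 over the span (adjusted p = 0.158), and without the repeat 1 array of 36 h -3.27 (adjusted p = 0.200). On the authors' processed values the FOS difference over the span was -2.83. In whole cultures, fewer cells with a message and less message per cell cannot be told apart.

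FHL2 took another course. It read 6.93 and 6.93 at 12 h, 5.92 and 5.77 at 24 h, and 5.56 and 5.64 at 36 h, so the 12 h arrays were level with each other and most of the difference lay before 24 h. From 12 to 24 h the log2 fold change was -1.08 ± 0.13 (adjusted p = 0.108), from 24 to 36 h -0.25 ± 0.13, and over the span -1.33 ± 0.13 (adjusted p = 0.00876). The size depended on the processing: over the span it was -0.67 without background correction and -0.67 on the authors' processed values. Its probe was detected on both arrays of 12 and 24 h and on 1 of 2 at 36 h. The other kept probe of FHL2, detected on 4 of the 6 arrays, read -0.99 from 12 to 24 h, 0.41 from 24 to 36 h and -0.58 over the span, and on the mean of the gene's probes FHL2 did not pass (adjusted p = 0.0651). Nor did it pass without any 1 of the 4 arrays of 12 and 36 h (adjusted p from 0.0522 to 0.200), though its log2 fold change stayed between -1.37 and -1.30. In miR-135b cells the first probe read 7.28 and 7.03 at 12 h, 6.996 and 6.93 at 24 h, and 6.97 and 6.89 at 36 h, with a difference of -0.22 between 36 and 12 h. The difference between these changes did not pass (adjusted p = 0.309), but it did with arrays of the same time and repeat number as a random block (1.11, adjusted p = 0.0192).

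**Figure D2:**
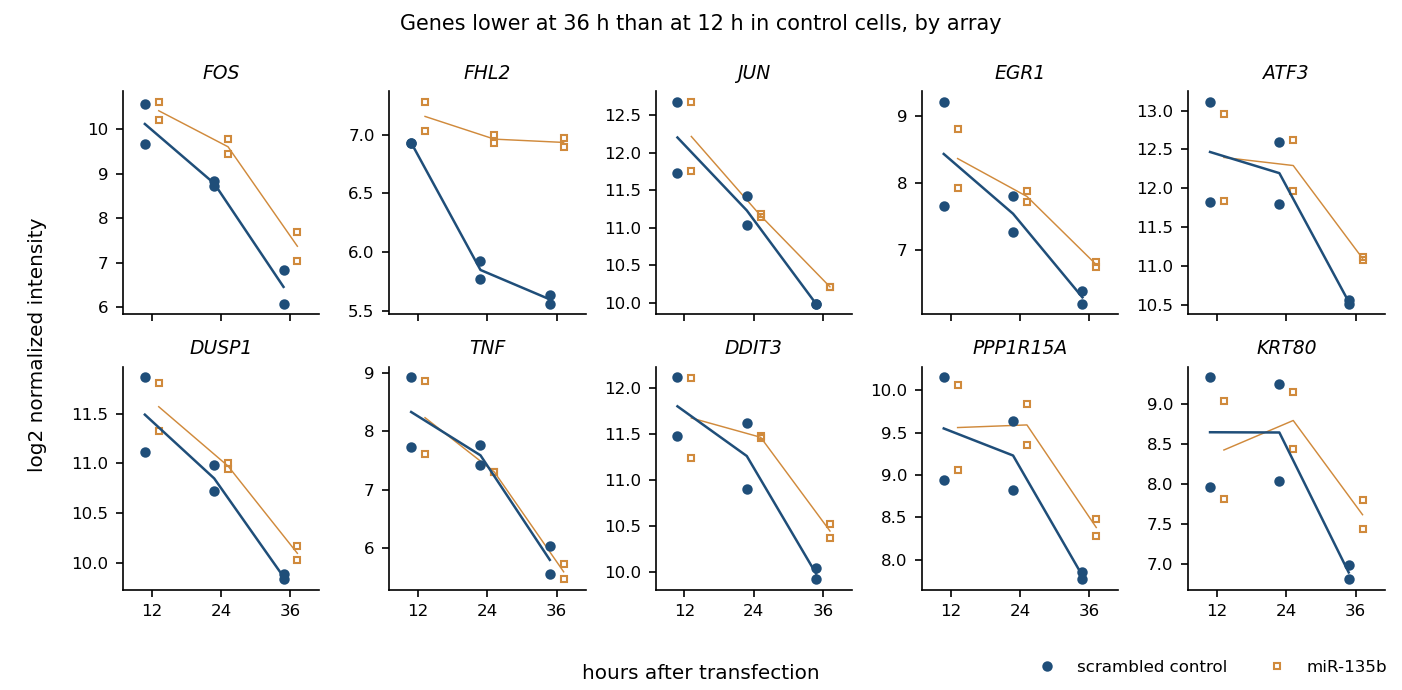
Log2 normalized intensity (y axis, a scale per gene) of 10 genes lower at 36 h than at 12 h, against hours after transfection (x axis). Filled circles are the 6 control arrays and open squares the 6 miR-135b arrays, 1 point per array, and lines join the means. FOS, JUN and DUSP1 stepped down at each time, ATF3, PPP1R15A and KRT80 stood lower mainly at 36 h, and FHL2 stood lower from 24 h on the control arrays, while its miR-135b arrays differed by -0.22 between 36 and 12 h.

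The immediate early genes leaned the way of FOS. Of 40 on the list, 31 were measured and 26 of these were detected on all 6 control arrays. FOS fell, and the other 30 did not pass. The median log2 difference between 36 and 12 h was -0.62, with 28 of 31 below 0, against -0.01 over all genes tested, of which 51.9% lay below 0. An unadjusted p under 0.05 with a lower level was reached by 18 of the 31, where the share over all genes was 7.2%, and MYC alone reached it with a higher level. Over 1 log2 unit lower at 36 h than at 12 h were 10 members, and 8 of these, all but JUND and ARC, had the larger part of it after 24 h. The medians were -0.23 from 12 to 24 h and -0.45 from 24 to 36 h, and 12 members reached an unadjusted p under 0.05 on the lower side in the later interval, where 2.35% of all genes did. The 12 h repeat 1 array read higher than its repeat for 27 of the 31 genes. Without it the median was 0.07 from 12 to 24 h, -0.45 from 24 to 36 h and -0.51 over the span, with 13 of 31 at an unadjusted p under 0.05 on the lower side, against 3.31% of all genes in that fit. The list's median below 0 between 12 and 24 h therefore rests on that array, while the later interval does not use it.

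After FOS, JUN came closest to the threshold among the subunits of AP-1. JUN read 12.68 and 11.73 at 12 h, 11.43 and 11.04 at 24 h, and 9.99 and 9.99 at 36 h, with a difference of -2.22 ± 0.33 (adjusted p = 0.0844) and -1.74 without the 12 h repeat 1 array. JUNB read 9.40 and 8.53 at 12 h, 8.77 and 8.70 at 24 h, and 7.26 and 8.01 at 36 h, or -1.34 over the span. JUND read 14.66 and 13.97 at 12 h, 13.80 and 13.75 at 24 h, and 13.13 and 13.39 at 36 h, or -1.05. All 3 JUN genes had their 36 h arrays below both 12 h arrays, which 23.3% of all genes had as well. FOSB was detected on both arrays at 12 h and 24 h and on neither at 36 h, where it was at least 1.78-fold lower than at 12 h (adjusted p = 0.0939). ATF3, a stress-induced repressor of the same bZIP class, read 13.12 and 11.82 at 12 h, 12.59 and 11.80 at 24 h, and 10.57 and 10.51 at 36 h, so its 12 and 24 h arrays overlapped. Its difference was -0.27 up to 24 h and -1.66 ± 0.47 after it, and its other kept probe, detected on 4 of the 6 control arrays, read -0.15 and -1.87. With the 12 h repeat 1 array left out, the brighter probe stood at 0.38 up to 24 h and at -1.28 over the span.

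EGR1, a zinc finger factor of the growth factor response, had the largest difference on the list after FOS and JUN. It read 9.21 and 7.65 at 12 h, 7.80 and 7.27 at 24 h, and 6.19 and 6.39 at 36 h. The 12 h repeats of EGR1 differed by more than the 24 and 36 h means did, and its difference of -2.14 ± 0.44 (adjusted p = 0.139) was -1.35 without the 12 h repeat 1 array. The krüppel-like factors KLF2, KLF4 and KLF6 stood at -0.47, -0.96 and -0.62 over the span, and KLF10 at -0.11, where its other probes read 0.22 and -0.41. KLF6 without the 12 h repeat 1 array stood at -0.18 and KLF10 at 0.09. SRF, the factor that drives many of these genes through the CArG box, read 11.26 and 11.004 at 12 h, 11.21 and 11.18 at 24 h, and 11.03 and 11.23 at 36 h and its groups overlapped, with a difference over the span of 0.00, or 0.13 without that array. MYC stood higher, at 0.35 ± 0.12, and its other probe at 0.86.

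Feedback genes of the response read lower as well. DUSP1, a phosphatase that switches off MAP kinases, read 11.87 and 11.11 at 12 h, 10.98 and 10.72 at 24 h, and 9.83 and 9.88 at 36 h, a difference of -1.63 ± 0.24 (adjusted p = 0.0844). ZFP36, which speeds the decay of messages with AU-rich ends, read 10.16 and 9.92 at 12 h, 10.16 and 9.73 at 24 h, and 9.003 and 9.12 at 36 h, with 12 and 24 h arrays that overlapped. The pseudokinase gene TRIB1 stood at -0.84 over the span, ARC at -1.12, IER3 at -1.40, and DUSP5 at -0.61. TRIB1 without the 12 h repeat 1 array stood at -0.56, IER3 at -0.82 and DUSP5 at -0.22. MAFF was detected on neither array of 36 h and was at least 1.48-fold lower there than at 12 h (adjusted p = 0.225), and its other probe read -0.44. GADD45B, a growth arrest gene, had its highest level at 24 h: it read 7.23 and 7.46 at 12 h, 7.87 and 8.24 at 24 h, and 6.70 and 7.04 at 36 h, with 0.71 up to 24 h and -1.18 ± 0.20 after it (adjusted p = 0.488). IER2, IER5, MCL1, SIK1 and DUSP2 lay between -0.28 and -0.10 over the span, with other probes of MCL1 at -0.47 and of SIK1 at 0.11, and CSRNP1 and NFKBIZ at -0.57 and -0.70. CCN1 stood at -0.52. IER2, IER5, SIK1 and DUSP2 without the 12 h repeat 1 array stood at 0.07, -0.11, -0.06 and 0.25, so that IER2 and DUSP2 changed sign, and CSRNP1, NFKBIZ and CCN1 at -0.26, -0.33 and -0.24. DUSP6 and CCN2, at 0.29 and 0.31, were detected on 1 and on 0 of the 6 control arrays, so their values lie near background, and DUSP6 stood at 0.50 without that array. In all, 7 of the 31 (FOS, FOSB, JUN, JUND, DUSP1, TRIB1 and ARC) had every array of a time below every array of the time before, a pattern that 2.91% of all genes showed; the opposite pattern, which 2.43% of all genes showed, was seen in MYC alone of the 31.

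The promoters of the 3 factor genes with the widest differences are shown with matches to searched motifs marked in the letters. Elements of another form, or outside the window, are not marked. The sequences run from 250 bases before to 50 bases after the start site and come from RefSeq (GRCh38.p14). FOS lies at chr14:75278578-75278877 on the plus strand, JUN at chr1:58783998-58784297 on the minus strand and EGR1 at chr5:138465229-138465528 on the plus strand. Capitals mark the core of the cAMP response element (TGACG, either strand) and the CArG box.
FOS: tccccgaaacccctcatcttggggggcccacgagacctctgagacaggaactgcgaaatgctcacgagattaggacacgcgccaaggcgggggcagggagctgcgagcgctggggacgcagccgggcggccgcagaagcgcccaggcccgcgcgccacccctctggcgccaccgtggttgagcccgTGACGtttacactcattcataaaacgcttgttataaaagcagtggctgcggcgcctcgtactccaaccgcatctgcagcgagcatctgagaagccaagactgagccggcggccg
JUN: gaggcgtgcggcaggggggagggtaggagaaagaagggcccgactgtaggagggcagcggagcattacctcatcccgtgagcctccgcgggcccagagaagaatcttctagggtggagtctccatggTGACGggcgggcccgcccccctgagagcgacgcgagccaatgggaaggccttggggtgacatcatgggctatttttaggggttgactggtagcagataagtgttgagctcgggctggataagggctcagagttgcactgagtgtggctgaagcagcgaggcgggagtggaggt
EGR1: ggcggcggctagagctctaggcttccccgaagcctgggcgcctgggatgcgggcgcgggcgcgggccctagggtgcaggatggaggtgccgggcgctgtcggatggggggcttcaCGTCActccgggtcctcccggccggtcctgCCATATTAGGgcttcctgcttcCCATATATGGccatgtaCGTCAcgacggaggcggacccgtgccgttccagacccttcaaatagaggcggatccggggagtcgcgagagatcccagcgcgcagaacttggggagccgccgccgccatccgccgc
The FOS window holds 1 TGACG core, at -64 from the start, the JUN window 1 and the EGR1 window 2, and EGR1 also holds 2 CArG boxes. A promoter window was given for 23 of the 31 measured immediate early genes. Of these, 12 (52.2%) hold the TGACG core, against 35.3% of the 9097 promoters of genes tested and 25% of all 27305, 3 (13%) hold the full TGACGTCA, against 3.44% and 1.98%, and 2 (8.7%, EGR1 and SRF) a CArG box, against 1.01% and 1.29%. Of AP-1 sites only the form TGANTCA was searched, and it was found in none of the 23 windows, against 4.2% and 7.76%. The ATF3 window, not printed, was searched as well and held no TGACG core, CArG box or TGANTCA. The JUN and ATF3 windows both hold TGACATCA, a form that was not searched. Matches overlap where TGACGTCA holds the core on both strands, and a match describes letters and not binding.

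Targets of NF-kB, many of which encode secreted signals, stood lower at 36 h as well, and none passed. All 12 measured of 18 lay below 0 between 36 and 12 h, with a median of -0.90, and 8 had an unadjusted p under 0.05, where 7.2% of all genes did on the lower side. TNF, the cytokine tumour necrosis factor, read 8.92 and 7.73 at 12 h, 7.75 and 7.42 at 24 h, and 5.55 and 6.04 at 36 h, and its probe was detected on 1 of 2 arrays at 36 h. Its difference was -2.53 ± 0.43 (adjusted p = 0.0946), and -1.93 without the 12 h repeat 1 array. The chemokine gene CCL20 read 8.96 and 6.68 at 12 h, 7.48 and 6.005 at 24 h, and 5.66 and 5.64 at 36 h. Its 12 h repeats lay so far apart that the difference of -2.17 had an SE of 0.92 and was -1.03 without repeat 1. The CCL20 reading of 5.66 lay below the lowest detected signal of its array, 5.69. CCL2, another chemokine gene, outside the list, was detected on neither array of 36 h and was at least 2.65-fold lower there than at 12 h (adjusted p = 0.292), or at least 1.60-fold without the 12 h repeat 1 array. TNFAIP3, a feedback inhibitor of NF-kB, stood at -1.07, and IER3, held by both lists, at -1.40, and without that array at -0.40 and -0.82. The list median was then -0.45, with 2 of 12 at an unadjusted p under 0.05, against 3.31% of all genes in that fit on the lower side, and the median from 12 to 24 h went from -0.21 to 0.07. The later interval, with a median of -0.50 and 12 of 12 below 0, does not use that array. The medians also moved with the detection filter. On probes detected on all 12 arrays the list median over the span was -0.35. With no detection filter that of the later interval was -0.26.

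Genes of the integrated stress response lay lower between 24 and 36 h. Of 32 ATF4 targets, 30 were measured and none passed; the median was -0.06 from 12 to 24 h (0.07 without the 12 h repeat 1 array) and -0.26 from 24 to 36 h, with 28 of 30 below 0 in the later interval and 6 at an unadjusted p under 0.05, against 2.35% of all genes on the lower side. DDIT3, which encodes the stress factor CHOP, read 12.11 and 11.48 at 12 h, 11.62 and 10.90 at 24 h, and 10.05 and 9.92 at 36 h, a difference of -1.81 ± 0.32 over the span (adjusted p = 0.0946), or -1.49 without the 12 h repeat 1 array. CHAC1, which degrades glutathione, stood at -1.34, SESN2, a sensor of leucine, at -1.14, and DDIT4, an inhibitor of mTOR signalling, at -0.63. Without that array these 3 stood at -0.67, -0.68 and -0.24. ATF4 itself, whose control is largely at translation, stood at 0.00. PPP1R15A, which directs a phosphatase to end the translational arrest, is not on the list and read 10.16 and 8.94 at 12 h, 9.64 and 8.82 at 24 h, and 7.76 and 7.85 at 36 h. Its 12 and 24 h arrays overlapped, and its difference after 24 h was -1.42 ± 0.44. The list's median over the span was -0.36, and -0.25 without the 12 h repeat 1 array.

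Chaperone and metal-binding genes also had medians below 0, and none passed. Among 17 measured genes of the unfolded protein response, 15 lay below 0 over the span, with a median of -0.27; XBP1, its transcription factor, stood at -0.50, and the chaperone genes DNAJB9 and MANF at -0.70 and -0.49. Without the 12 h repeat 1 array these 3 stood at -0.19, -0.32 and -0.28, and the list median was -0.19 with 12 of 17 below 0. Of 15 measured heat shock genes, 13 lay below 0 with a median of -0.20, or -0.29 without that array. HSPA1B, an inducible HSP70 gene with a near-identical copy that its probe may also read, stood at -0.59 ± 0.13. All 7 measured genes of the metallothionein list, zinc-binding proteins and the zinc exporter SLC30A1, lay below 0, with a median of -0.72 and 4 at an unadjusted p under 0.05, against 7.2% of all genes on the lower side. MT2A read 13.13 and 13.57 at 12 h, 12.81 and 13.06 at 24 h, and 12.28 and 12.66 at 36 h and MT1F 10.88 and 11.29 at 12 h, 10.46 and 10.56 at 24 h, and 10.005 and 9.97 at 36 h. For both the 12 h repeat 1 array was the lower of the 12 h pair, unlike the immediate early genes, and without it the list median was -1.10 with 5 of 7 at an unadjusted p under 0.05, against 3.31% of all genes in that fit. MT1H was detected on neither array of 36 h and was at least 3.12-fold lower there (adjusted p = 0.198), or at least 4.83-fold without the 12 h repeat 1 array. Signal from close relatives of the MT1 family was not told apart here. Promoter windows were given for 4 of the 7, and all 4 (100%) hold the core of the metal response element, TGCNCNC on either strand, which 63.2% of the promoters of genes tested hold as well.

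Genes of mitosis read highest at 24 h. Of 49 measured of 50, 43 stood higher at 24 h than at 12 h, with a median of 0.18, and 46 lower at 36 h than at 24 h, with a median of -0.29, against 0.00 and -0.01 over all genes. None passed, and 13 had an unadjusted p under 0.05 on the lower side in the later interval, where 2.35% of all genes did. TTK, a kinase of the spindle checkpoint, read 8.81 and 8.92 at 12 h, 9.10 and 8.84 at 24 h, and 8.45 and 8.31 at 36 h, and KIF18A, a kinesin that acts on spindle microtubules, 6.27 and 6.10 at 12 h, 6.13 and 6.62 at 24 h, and 5.98 and 5.64 at 36 h. Their differences from 24 to 36 h were -0.59 ± 0.22 and -0.56 ± 0.21. CENPA, the histone of the centromere, and BIRC5, which encodes survivin, were chosen after their values were seen. CENPA read 10.11 and 10.12 at 12 h, 10.35 and 10.27 at 24 h, and 9.59 and 9.94 at 36 h. BIRC5 read 10.30 and 10.22 at 12 h, 10.44 and 10.37 at 24 h, and 9.996 and 9.90 at 36 h. Both 36 h arrays of CENPA, BIRC5 and TTK lay below both 24 h arrays, as they did for 19.2% of all genes. CDK1 and CCNB1, whose proteins form the mitotic kinase, stood at 0.11 and -0.04 in that interval, and they too were chosen after their values were seen.

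The arrays taken singly showed this order, with both 24 h arrays highest and both 36 h arrays lowest. The median of the 49 genes was taken against each gene's 12 h mean. It was 0.06 and -0.06 on the 12 h arrays, which mirror each other because they form that mean. It was 0.17 and 0.17 on the 24 h arrays and -0.15 and -0.09 on the 36 h arrays. Median scaling in place of quantile normalization moved the median of all genes to -0.10 from 12 to 24 h and to 0.11 from 24 to 36 h. The mitosis medians under it were 0.07 and -0.17, so they stood above that shift in the first interval and below it in the next. Over the whole span the median was -0.09, with 36 of 49 below 0. For genes of the G1/S phase and of replication the medians were -0.01 and -0.15, with 37 of 45 below 0 in the later interval, and the replication factors DTL, ORC1, MCM10 and CDC6 stood between -0.69 and -0.56 over the span, with ORC1 at -0.34 without the 12 h repeat 1 array.

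**Figure D3:**
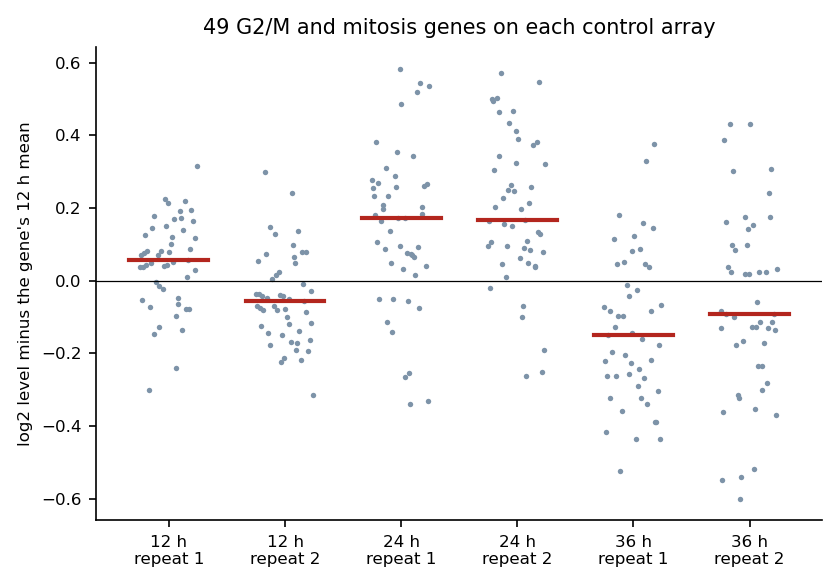
Log2 level of 49 G2/M and mitosis genes on each control array minus the gene's own 12 h mean (y axis), by array (x axis). Points are genes and bars are medians. Both 24 h arrays have a median of 0.17, above every other array, and both 36 h arrays lie below 0.

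Prostate genes driven by androgen stood higher with time, and none passed. Of 36 measured androgen-induced genes, 30 lay above 0 between 36 and 12 h, against 48.1% of all genes, with a median of 0.29, and 11 had an unadjusted p under 0.05 on the higher side, where 6.34% of all genes did. Both 36 h arrays lay above both 12 h arrays for 20 of the 36, against 20.6% of all genes. KLK3 read 8.90 and 8.96 at 12 h, 9.08 and 9.58 at 24 h, and 9.59 and 9.86 at 36 h. KLK2, a neighbouring kallikrein gene, read 6.69 and 6.94 at 12 h, 6.57 and 7.29 at 24 h, and 7.34 and 7.95 at 36 h. TMPRSS2, a membrane protease gene, read 10.09 and 10.25 at 12 h, 10.48 and 10.97 at 24 h, and 10.65 and 11.35 at 36 h. For these 3 genes every 36 h array lay above both 12 h arrays, while the 24 h repeats lay apart, with repeat 2 the higher. Their differences over the span were 0.79 ± 0.32, 0.83 ± 0.34 and 0.83 ± 0.35, with adjusted p of 0.338, 0.338 and 0.344.

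TRPM8, a cold-sensing calcium channel of prostate epithelium, stood higher at each time: it read 6.54 and 7.09 at 12 h, 7.26 and 7.43 at 24 h, and 7.70 and 7.89 at 36 h. Its difference was 0.98 ± 0.20 (adjusted p = 0.140), and its other kept probe read 0.49. PMEPA1, which dampens TGF-beta signalling, stood at 1.00 ± 0.31, with other probes at 1.01 and, detected on 3 of 6 control arrays, at -0.54, and STEAP2, a metalloreductase gene, at 0.59 ± 0.14. TSC22D3, which androgens and glucocorticoids both induce, went against the list. It read 11.51 and 11.08 at 12 h, 10.89 and 10.54 at 24 h, and 10.23 and 10.15 at 36 h, a difference of -1.11 ± 0.18 (adjusted p = 0.0844), and its other kept probes read -0.73 and -0.84. Without the 12 h repeat 1 array the list median was 0.25, with 23 of 36 above 0 and 4 at an unadjusted p under 0.05 on the higher side, against 3.19% of all genes in that fit. The 9 identity markers had a median of 0.59, or 0.53 without that array. KLK3, KLK2, TMPRSS2, STEAP2 and TRPM8 are on the androgen-induced list as well, so these lists are not separate results. FOLH1, which is not on it, stood at 0.44, or 0.29 without that array. The other markers, HOXB13, a homeobox factor, and the luminal keratin genes KRT8 and KRT18, stood at 0.06, -0.25 and -0.15. Each lay within its SE or little beyond it. Without that array they stood at 0.23, -0.04 and 0.03.

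Genes known to be lowered by androgen also had a median above 0. Of 13 measured, 10 lay above 0 over the span, with a median of 0.27. DDC, an aromatic amino acid decarboxylase that also binds the androgen receptor, read 11.15 and 11.03 at 12 h, 11.58 and 11.65 at 24 h, and 11.85 and 11.76 at 36 h, a difference of 0.71 ± 0.12 (adjusted p = 0.0946). BCHE, a cholinesterase gene, stood at 0.81. UGT2B17, which conjugates androgens for excretion, and UGT2B11, a close relative that a probe may confuse with it, stood at 0.74 and 0.63. Without the 12 h repeat 1 array UGT2B17 and UGT2B11 stood at 0.29 and 0.10, while the list median was 0.29 with 8 of 13 above 0.

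**Figure D4:**
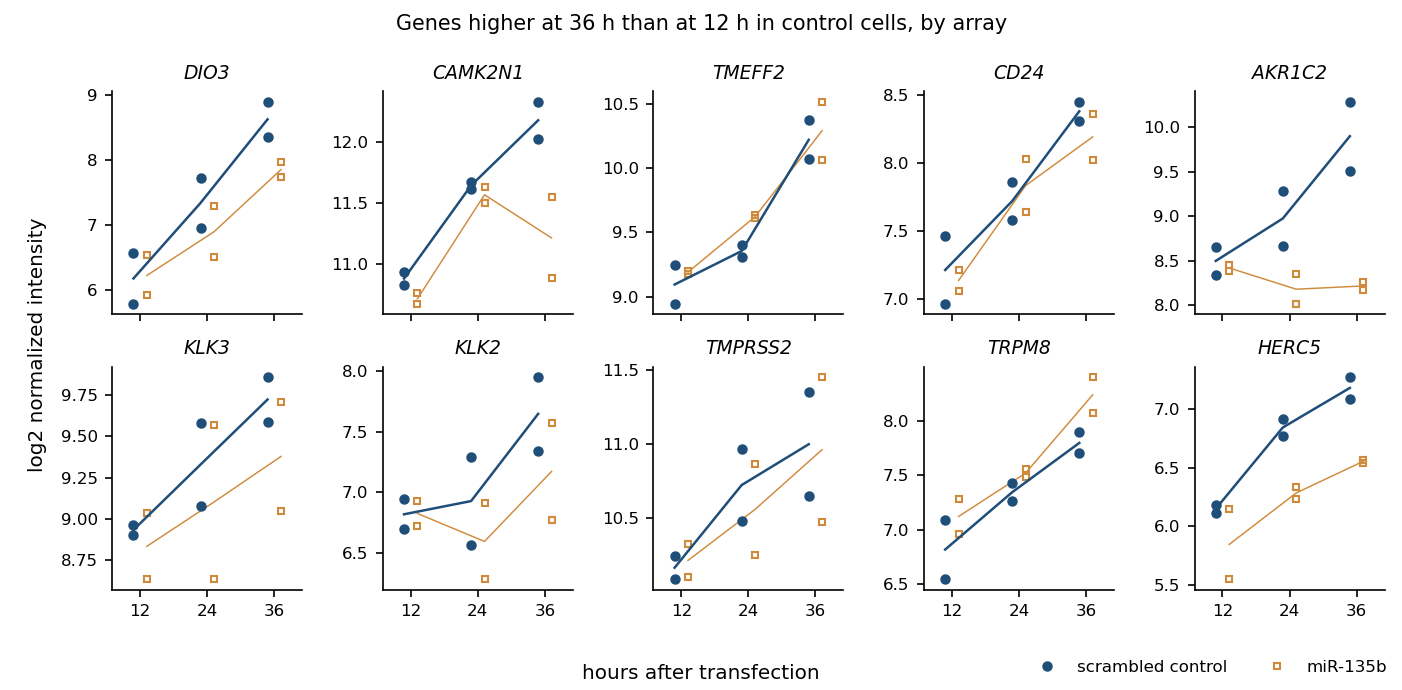
Log2 normalized intensity (y axis, a scale per gene) of 10 genes higher at 36 h than at 12 h, against hours after transfection (x axis), with control arrays as filled circles, miR-135b arrays as open squares and lines through the means. Each of the 10 has both control arrays of 36 h above both of 12 h, as have 20.6% of all genes. AKR1C2 in miR-135b cells differs by -0.20 between those times.

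The gene with the largest difference on the higher side was DIO3, a deiodinase that inactivates thyroid hormone. It read 5.79 and 6.57 at 12 h, 6.95 and 7.73 at 24 h, and 8.35 and 8.90 at 36 h. Its steps were alike in size, 1.16 and then 1.28, and together 2.44 ± 0.38, a 5.44-fold difference (adjusted p = 0.0844). Without the 12 h repeat 1 array it was 2.05, with 0.77 up to 24 h. CAMK2N1, an inhibitor of calcium/calmodulin-dependent kinase, had closer repeats: it read 10.93 and 10.83 at 12 h, 11.61 and 11.67 at 24 h, and 12.33 and 12.02 at 36 h, or 1.29 ± 0.20 (adjusted p = 0.0844). TMEFF2, a prostate membrane protein with follistatin-like domains, read 8.94 and 9.25 at 12 h, 9.40 and 9.31 at 24 h, and 10.37 and 10.07 at 36 h and so differed mainly after 24 h, with 1.12 ± 0.18 over the span (adjusted p = 0.0844). CD24, a glycoprotein of the cell surface, stood at 1.17 ± 0.21. GPNMB, a lysosomal and melanosomal glycoprotein, stood at 1.18 ± 0.48, with repeats nearly as far apart as the times, and its other probe at 0.78. GPNMB without the 12 h repeat 1 array stood at 0.71.

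AKR1C2, a reductase that inactivates dihydrotestosterone, read 8.34 and 8.66 at 12 h, 8.67 and 9.28 at 24 h, and 9.51 and 10.29 at 36 h in control cells. Its difference was 1.40 ± 0.27 (adjusted p = 0.109), and its probe may also pick up near-identical AKR1C genes. In miR-135b cells AKR1C2 read 8.46 and 8.39 at 12 h, 8.02 and 8.35 at 24 h, and 8.17 and 8.27 at 36 h, a difference of -0.20. The changes in control and miR-135b cells differed by -1.60, which did not pass (adjusted p = 0.803). HES2, a transcriptional repressor gene of the HES family, was detected on neither array of 12 h and was at least 2.07-fold higher at 36 h (adjusted p = 0.220). SNORD38A, a small nucleolar RNA, COLCA1 and ANKRD33 complete the 10 largest differences among detected genes whose groups did not overlap, with 1.26, 1.34 and 1.11, and SNORD38A and COLCA1 stood at 0.61 and 0.61 without the 12 h repeat 1 array. On the lower side, KRT80, an epithelial keratin gene outside all lists, read 9.33 and 7.95 at 12 h, 9.25 and 8.03 at 24 h, and 6.98 and 6.80 at 36 h, so its means of 12 and 24 h were level and its difference after 24 h was -1.75 ± 0.55. Over the span KRT80 stood at -1.75, or -1.06 without that array.

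Interferon-stimulated genes are of interest here because a transfected double-stranded RNA can be sensed as viral. Of 23 measured genes, 17 lay above 0 over the span, with a median of 0.16, and none passed. HERC5, a ligase that attaches ISG15 to proteins, read 6.18 and 6.11 at 12 h, 6.77 and 6.92 at 24 h, and 7.09 and 7.27 at 36 h, a difference of 1.03 ± 0.18 (adjusted p = 0.0997). IFIT1, which binds viral RNA, read 5.61 and 5.52 at 12 h, 6.65 and 6.08 at 24 h, and 6.62 and 6.54 at 36 h, and its relative IFIT2 was detected on neither array of 12 h and was at least 1.46-fold higher at 36 h (adjusted p = 0.103). The IFIT1 reading of 5.52 at 12 h lay below the lowest detected signal of its array, 5.63. ISG15 and MX1, also interferon targets and chosen after their values were seen, stood at 0.01 and -0.19. IRF1, a factor that NF-kB also induces, read 8.74 and 7.92 at 12 h, 8.61 and 7.53 at 24 h, and 7.38 and 6.78 at 36 h, or -1.25 ± 0.49. Without the 12 h repeat 1 array the list median was 0.06, with 14 of 23 above 0.

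Lists of basic metabolism stayed close to the median of all genes. The median over the span was 0.03 for 36 cytosolic ribosomal protein genes, 0.03 for 32 genes of oxidative phosphorylation and 0.07 for 17 glycolysis genes. Ribosome biogenesis genes lay lower, with a median of -0.19 and 24 of 29 below 0. RRP12, a factor of pre-ribosome export, stood at -0.55. Cholesterol synthesis genes had 16 of 19 above 0 and a median of 0.16. Of these, 0 had an unadjusted p under 0.05 on the higher side, where 6.34% of all genes did. LSS, which closes the sterol ring, stood at 0.63 ± 0.30, and CYP51A1, INSIG1 and SREBF2 at 0.63, 0.61 and 0.38. Without the 12 h repeat 1 array LSS stood at 0.54 and the others at 0.20, 0.23 and 0.15. The list median was then 0.14, with 13 of 19 above 0. Hypoxia-induced genes had a median of 0.11, lipogenesis genes of 0.11, NRF2 targets of -0.08 and p53 targets of 0.01. Targets of SRF and MRTF, where FHL2 is the member that fell, had a median of -0.11, with ZYX and CNN2, which bind actin structures, at -0.57 and -0.48. Genes of apoptosis, of FOXO and of lysosomes and autophagy had medians of -0.11, -0.09 and 0.08, targets of WNT, of YAP and TAZ and of BMP and TGF-beta of -0.01, -0.30 and -0.21, and small RNA machinery of 0.10. No member of these lists other than FHL2 passed. The medians of glycolysis, oxidative phosphorylation, lipogenesis, NRF2, p53, WNT, BMP and TGF-beta, FOXO and lysosome genes changed sign when an array was left out or the probes were filtered or averaged in another way. That of YAP and TAZ targets, with 9 genes measured, came to -0.0013 with no detection filter. Small RNA machinery came to 0.0007 without the 36 h repeat 2 array.

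**Figure D5:**
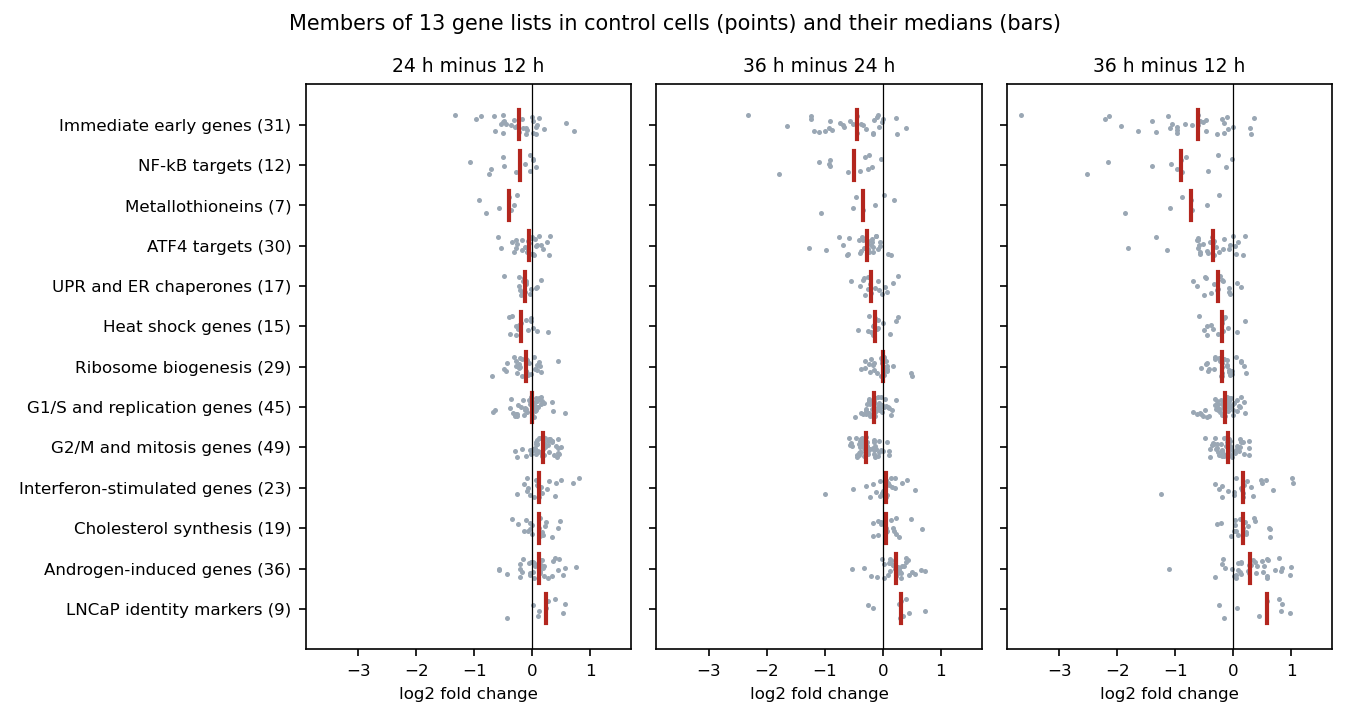
Log2 fold changes of the members of 13 gene lists (grey points, number measured in brackets) with list medians (red bars) in the 3 comparisons of control cells. The immediate early, NF-kB and ATF4 lists lie farther below 0 from 24 to 36 h than from 12 to 24 h. The G2/M list changes side between the intervals. The androgen-induced and identity lists, which share members, have medians above 0 over the span.

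The courses of single genes between the times were not all steady. At 24 h against 12 h the 10 lowest genes with separate groups of arrays, where 18.9% of all genes had the 24 h arrays below both 12 h arrays, lay between -1.33 and -0.97. FAM210B, which encodes a mitochondrial protein, read 10.84 and 10.21 at 12 h, 9.37 and 9.68 at 24 h, and 9.47 and 9.53 at 36 h, so its 24 and 36 h arrays were alike in level. IFT22 and NXPH4 were detected on neither array of 24 h and were at least 1.44-fold and 1.43-fold lower there than at 12 h (adjusted p = 0.472 and 0.493). The 10 highest, where 19.8% of genes had separate arrays on the higher side, went up to 1.16. Among them UBE2J2, a ubiquitin-conjugating enzyme of the endoplasmic reticulum, read 7.85 and 7.73 at 12 h, 8.72 and 8.55 at 24 h, and 8.27 and 8.30 at 36 h, with its other probe at 0.15 from 12 to 24 h, and COPG2, a coat protein of Golgi vesicles, read 7.05 and 7.34 at 12 h, 8.13 and 8.07 at 24 h, and 7.07 and 7.65 at 36 h. Both stood highest at 24 h, as did SNF8, part of the endosomal sorting machinery, which read 9.42 and 9.21 at 12 h, 10.31 and 10.17 at 24 h, and 9.77 and 10.09 at 36 h.

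From 24 to 36 h the 10 lowest genes were led by FOS and TNF and held KRT80, ATF3, BEST1, PPP1R15A, DDIT3, JUN, EGR1 and GADD45B, between -2.32 and -1.18, where 19.2% of all genes had separate arrays on the lower side. BEST1, a chloride channel gene, read 7.95 and 6.66 at 12 h, 7.84 and 7.09 at 24 h, and 6.34 and 5.62 at 36 h. The BEST1 reading of 5.62 lay just below the lowest detected signal of its array, 5.63. All 10 had the same sign in miR-135b cells. Over all genes the changes of control and miR-135b cells in this interval had r = 0.41, and the share with the same sign was not counted. The 10 highest went from 0.94 to 1.28, where 14.7% had separate arrays on the higher side. SLC25A27, a mitochondrial carrier, read 6.38 and 6.18 at 12 h, 5.09 and 5.86 at 24 h, and 6.53 and 6.43 at 36 h. ADA2, a secreted adenosine deaminase, read 5.79 and 5.73 at 12 h, 5.14 and 4.87 at 24 h, and 5.84 and 6.12 at 36 h. Both were lowest at 24 h, when ADA2 was detected on neither array. The SLC25A27 reading of 5.09 lay below the lowest detected signal of its array, 5.89. A test of the change from 24 to 36 h against that from 12 to 24 h passed for no gene with limma, while 447 (3.98%) had an unadjusted p under 0.05. That an interval differs from the other was thus not shown for any gene named here.

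The change with time in control cells was set against that in miR-135b cells. Between 36 and 12 h, 141 genes passed in miR-135b cells, 1.25% of those tested, against 2 in control cells, but without a block the difference between the changes passed for no gene in any of the 3 comparisons, and 418 (3.72%), 272 (2.42%) and 606 (5.39%) had an unadjusted p under 0.05 from 12 to 24 h, from 24 to 36 h and over the span. Taken over the 11238 genes, and genes do not vary independently, the changes of control and miR-135b cells had r = 0.38 (rho = 0.38) from 12 to 24 h, 0.41 (0.37) from 24 to 36 h and 0.53 (0.48) from 12 to 36 h. Control and miR-135b arrays of the same time and repeat number deviated together from their group means, at r of 0.47, 0.46 and 0.58, and the correlations were not corrected for it. With those pairs of arrays as a random block, 9 genes passed for a difference in change over the span, FHL2 among them (1.11, adjusted p = 0.0192). FOS read 10.62 and 10.20 at 12 h, 9.44 and 9.76 at 24 h, and 7.05 and 7.69 at 36 h in miR-135b cells, a difference of -3.04 (adjusted p = 0.0156), and JUN stood there at -2.00 (adjusted p = 0.0406) and TNF at -2.63 (adjusted p = 0.0403). All 10 of the lowest control genes over the span had the same sign in miR-135b cells, and 9 of the 10 highest did, with AKR1C2 the exception. The share of all genes with the same sign was not counted. The immediate early list had a median of -0.60 there, against -0.62 in control cells, and the mitosis list from 24 to 36 h of -0.54, against -0.29. Between 36 and 12 h FAM210B stood at 0.10 in miR-135b cells, against -1.02 in control cells, and the difference did not pass (adjusted p = 0.803).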

How the data were processed

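Per the file headers, the deposited table of non-normalized values gives a linear signal intensity and a detection p-value for every probe on every array. The authors also deposited processed log2 values, which served as an alternative. The submitters' processing notes name GenomeStudio 2010.2 and lumi 1.8.3 without their roles, and the genome build behind the probes was not stated in the labels or headers read here. From the intensities, background was corrected with limma 3.58.1 in R 4.3.3 (normexp, with negative controls inferred from the detection p-values, offset 16), followed by quantile normalization and log2. Probes were kept where 2 or more of the 12 arrays had a detection p under 0.01, which left 19161 of 47323. Since the filter spans all arrays, a few kept genes were detected on no control array. The platform annotation gave 14905 of these a single gene name, and each of the resulting 11238 genes was read by its brightest probe. The offset shrinks differences of dim genes.

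With lmFit and eBayes, 6 group means were fitted over the 12 arrays (6 residual degrees of freedom), so the miR-135b arrays enter the estimate of spread. Tests were two-sided, with Benjamini-Hochberg adjustment over all genes and a threshold of 0.05, and the procedure was tested on simulated data. For an "at least" fold, a probe undetected on every array of a group was set, array by array, to the lowest detected signal or to its own where that was higher. Repeat numbers were not used as a block in the main fit. Same-numbered control arrays deviated from their group means with r of 0.18 for 12 and 24 h, 0.26 for 24 and 36 h and -0.04 for 12 and 36 h. Whether they pair the control times was not settled by this. Groups and comparisons follow the sample titles. Genes named are those that passed, the 10 highest and 10 lowest per comparison among genes detected on both arrays of a group whose groups do not overlap, all measured immediate early genes, the LNCaP markers, and in each other list the 4 largest differences between 36 and 12 h; others are said to be chosen after their values were seen or are named for their role in a list. The members and the gene lists were chosen with earlier results of these data known. Background correction, offset, scaling, the authors' values, detection filters, probe means, control arrays alone, blocks and leaving out arrays were alternatives. The test between the intervals, the values of every kept probe and counts without each miR-135b array were added after seeing the data. Motifs were searched in RefSeq promoter windows with Python. Arrays were not read as molecules, so their number limits the precision.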

Additional observations from a re-analysis of the deposited data

How the results depend on the processing

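No gene passed from 12 to 24 h, from 24 to 36 h, or in the test between those intervals under any setting tried. Between 36 and 12 h, where 2 genes passed, 20 passed without background correction, 20 on the authors' processed values, 17 with an offset of 50, 14 on probes detected on all 12 arrays, 1 on the mean of a gene's probes, 0 on control arrays alone and 7 with time and repeat number as a random block, and from 0 to 4 when 1 of the 12 arrays was left out (0 to 2 for control arrays, 4 without either miR-135b array of 36 h). Over the 3 times by the F test, where 2 passed, 1 passed without background correction, with an offset of 50, on the authors' values, on probes detected on all arrays, with no detection filter and on probe means, 0 on control arrays alone and from 0 to 2 when 1 of the 12 arrays was left out, 0 without any 1 control array. JUN, DDIT3, DUSP1, DIO3, CAMK2N1, TMEFF2, TSC22D3, DDC and MT1F are among the 20 on the authors' values. Same-numbered control arrays deviated together between 12 and 24 h (r = 0.18) and between 24 and 36 h (r = 0.26), but not between 12 and 36 h (r = -0.04). Whether the repeat numbers pair the control times was thus not settled, and the main fit leaves any shared part in the spread. A replicate block on them gave 68 genes between 36 and 12 h and 3 by the F test. The difference between miR-135b and control cells passed for no gene except under the random block, which called 9 over the span, FHL2 among them (1.11, adjusted p = 0.0192). FOS missed the threshold on control arrays alone (adjusted p = 0.116) and without the repeat 1 array of 12 h (0.158) or 36 h (0.200). FHL2 missed it on probe means (0.0651), on control arrays alone (0.137) and without any 1 of the 4 arrays of 12 and 36 h (0.0522 to 0.200). FOS and FHL2 kept their direction in every setting that gave them a value, and FHL2 has none on probes detected on all arrays. Their size did not hold in every setting. On the authors' values the log2 fold change over the span was -2.83 for FOS, -0.67 for FHL2 and 1.65 for DIO3, against -3.65, -1.33 and 2.44 in the main fit. The cause of these shifts was not tested. With 2 arrays per time, a 5.44-fold difference such as that of DIO3 did not pass, so smaller ones may have been missed, above all for probes near background.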
